A study of Mus musculus with 3 samples.

Results

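The genes described here encode the proteins that license replication origins and build the replication fork, measured in J1 mouse embryonic stem cells (mESCs) treated with PD0325901 (PD), which blocks the kinase MEK. They are 42 genes chosen by name and function, not by a measured value, though earlier results of these data were known. Their accessions matched 48 of the 55681 probes on the array, and they make up 42 of the 20660 genes with a symbol there. The study set PD-treated against control J1 mESCs with expression arrays. The 3 samples used here were all treated with 1 µM PD for 24 h and form 1 group, replicates 1 to 3, which the study's methods describe as independent experiments. All were of a single line, J1, labelled as strain 129S4/SvJae and as derived from the inner cell mass, and were grown on gelatin in knockout DMEM with knockout serum replacement and leukemia inhibitory factor (LIF) at 1000 U/mL. Cells without PD were not analysed here, so none of the values below is an effect of PD and no p-value was computed.

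Before S phase, the origin recognition complex (ORC) binds origins, and Cdc6 and Cdt1 help it to load the ring of minichromosome maintenance (MCM) proteins onto DNA. This step is called licensing, and geminin (Gmnn) blocks it by binding Cdt1 once S phase has begun. The kinase Cdc7 with its activator Dbf4, together with cyclin-dependent kinases, then lets Cdc45 and the GINS complex join MCM to form the active helicase, around which polymerases, the sliding clamp PCNA, its loader RFC and the single strand binding protein RPA assemble. Embryonic stem cells divide fast and have a short G1 phase, so licensing takes place in little time. Many genes of this machinery are known targets of E2F transcription factors, which switch on transcription at the entry to S phase.

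The promoters of these genes were searched first for the E2F consensus, since many genes of this machinery are known E2F targets. The genes were not chosen by this motif, but the motif was chosen with the list known. The window reached from 250 bases before to 50 bases after each start site in RefSeq on GRCm38.p6, and 34 of the 42 genes had an entry. The forms searched on both strands were TTTCCCGC, TTTCGCGC, TTTGCCGC and TTTGGCGC. A match was found in 14 of 34 genes (41.2%), against 704 of 27025 genes in the whole table (2.60%) and 4.32% of the genes detected on all 3 arrays. Matches can depend on base composition, and the median GC content was 61.3% in the promoters of the replication genes, 59.7% in those of the detected genes and 52.7% in all promoters. A gene can have several promoters, and counted by promoter a match was found in 14 of 43 for the replication genes (32.6%). Over all promoters this share was 2.26%. Of the 8610 promoters in the table with a GC content of at least 61.3%, 4.33% held a match, and of the 23 promoters of replication genes among them 6 did. The matches, 20 in all, fell on 18 separate sites, and 1 of them overlapped a CCAAT box.

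Among the licensing genes, matches lay in the promoters of Orc1, Orc3, Cdc6, Cdt1, Mcm3, Mcm5, Mcm6 and Mcm7. A window from each of Orc1, Cdc6, Cdt1 and the MCM genes is shown to let the reader see how the sites are built, with the matched bases in capitals and the rest in lower case. Each line gives 30 bases, 5′ to 3′ on the strand of the gene.
Orc1, chr4:108579416-108579445, plus strand: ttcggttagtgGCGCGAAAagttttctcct
Cdc6, chr11:98908002-98908031, plus strand: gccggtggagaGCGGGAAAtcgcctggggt
Cdt1, chr8:122568035-122568064, plus strand: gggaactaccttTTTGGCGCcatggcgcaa
Mcm3, chr1:20820265-20820294, minus strand: gGCGGGAAAacttgggaagtTTTGGCGCca
Mcm5, chr8:75109347-75109376, plus strand: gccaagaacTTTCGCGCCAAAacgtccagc
Mcm6, chr1:128359795-128359824, minus strand: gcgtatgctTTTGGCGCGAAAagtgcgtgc
Mcm7, chr5:138171849-138171878, minus strand: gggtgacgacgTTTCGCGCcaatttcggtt

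In Mcm5 and Mcm6 a match on one strand ran into a match on the other, which gave 1 longer run of capitals. Mcm3, Mcm6, Mcm7 and Rfc3 held 2 separate sites each. Both sites of Mcm3 lie in the window shown, downstream of its start. The second site of Mcm6 lies at positions -47 to -40 from the start site and that of Mcm7 at -165 to -158, outside the windows shown. Of the other complexes, Gins3, Rfc3, Pola1, Pole2, Pold1 and Lig1 held a match. The promoters of the other 20 genes with an entry held none of the exact forms searched: both genes of the kinase (Cdc7 and Dbf4), all of RPA (Rpa1, Rpa2 and Rpa3), and Orc2, Orc4, Orc5, Orc6, Mcm2, Mcm10, Cdc45, Pcna, Rfc1, Rfc4, Rfc5, Pola2, Prim1, Pold2 and Fen1. A further 8 genes, which were Mcm4, Gmnn, Gins1, Gins2, Gins4, Rfc2, Pole and Prim2, had no entry in the promoter table. Counted from the start site, with bases before it negative, all matches lay between positions -165 and 46. A match is a description of these letters and does not show that a factor was bound. The lack of a match does not show that a gene has no E2F site, since other forms and positions were not searched.

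Other promoter motifs were counted in the same windows and on both strands. The CCAAT box (CCAAT) was found in 21 of 34 genes (61.8%), against 42.8% of the detected genes. The GC box (GGGCGG) was found in 26 of 34 (76.5%), against 63.5%. The TATA box (TATAAA) was found in 3 of 34 (8.82%), against 10.2% of the detected genes and 25.9% of the genes detected on no array.

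**Figure D1:**
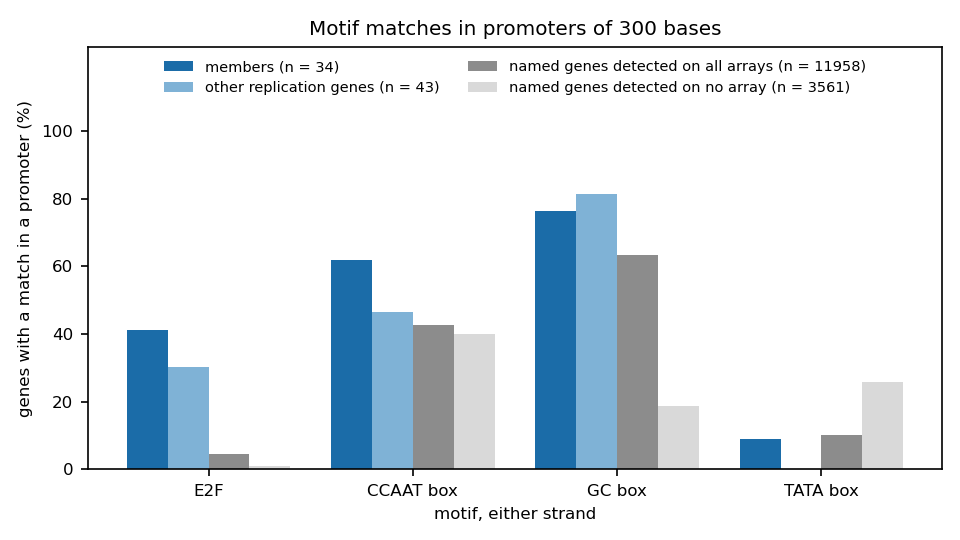
Share of genes (%, vertical axis) with at least 1 match to each motif (horizontal axis) in a promoter of 300 bases. Bars stand for the replication genes described here (members), the fixed list of other replication genes, and all named genes detected on all or on no array. The E2F bars of the 2 replication lists reach 41.2% and 30.2%, those of the detected and undetected genes 4.32% and 0.871%.

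Mcm7 also carries a microRNA cluster inside its gene, on the same strand. The members of this cluster, miR-106b, miR-93 and miR-25, are transcribed with Mcm7. The study also sequenced small RNAs, from RNA pooled by treatment, and reported this cluster among the microRNAs that were lower after PD. Those small RNA data were not analysed here. The arms shown are those usually counted as the functional ones, with the seed (bases 2 to 8) in capitals, because the seed decides which transcripts pair with the microRNA.
mmu-miR-106b-5p, chr5:138165787-138165807: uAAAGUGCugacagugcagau
mmu-miR-93-5p, chr5:138165574-138165596: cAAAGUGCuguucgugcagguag
mmu-miR-25-3p, chr5:138165332-138165353: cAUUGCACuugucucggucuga

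The first and second share the seed AAAGUGC, and miR-25 has the seed AUUGCAC. The array had no probe matched to these microRNA genes, so the level of Mcm7 given below is that of the host transcript alone. One other gene of the list, Pold1, contains an annotated microRNA, miR-7053.

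The arrays were compared by the flags and signals of the scanner software. The lowest signal flagged well above background was between 10.1 and 11.4, no spot was saturated, and the 75th percentile of the probes lay between 511 and 551. Replicate 2 had 187 spots marked as non-uniform, against 25 and 8 on replicates 1 and 3, and 6 of its 48 blocks held at least 10 of them each. These are called marked blocks, and the genes with spots there are named beside their values. Of the markers of embryonic stem cells, 6 of 6 were detected (Pou5f1, Nanog, Sox2, Esrrb, Zfp42 and Tfcp2l1). Detection on all arrays was found for 1 of 5 fibroblast genes (Thy1), 3 of 3 endoderm genes (Gata6, Sox17 and Foxa2) and 0 of 2 mesoderm genes. Detection does not mean a high signal. Mean signals were 91.9, 55.3 and 45.9 for Gata6, Sox17 and Foxa2, under the 75th percentile, and 624 for Thy1. Those of the stem cell markers ran from 691 (Nanog) to 41080 (Esrrb).

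Every one of the 42 replication genes was well above background on all 3 arrays, and so were all 48 probes. Over all genes with a symbol this share was 72.7%. The level of a gene is given here as the log2 of its processed signal minus the 75th percentile of the array, so that 0 is the 75th percentile, and a gene with several probes is represented by the one with the highest mean. Levels were above 0 on all arrays for 38 of the 42 genes, against 40.9% of all genes. The other 4 were Orc4, Cdc45, Cdc7 and Pola2. Mean levels ran from -2.12 to 7.46. Signals depend on the sequence of the probe, so levels of different genes are listed and not ranked. In RNA from whole cultures, fewer cells in S phase and less RNA per cell cannot be told apart.

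**Figure D2:**
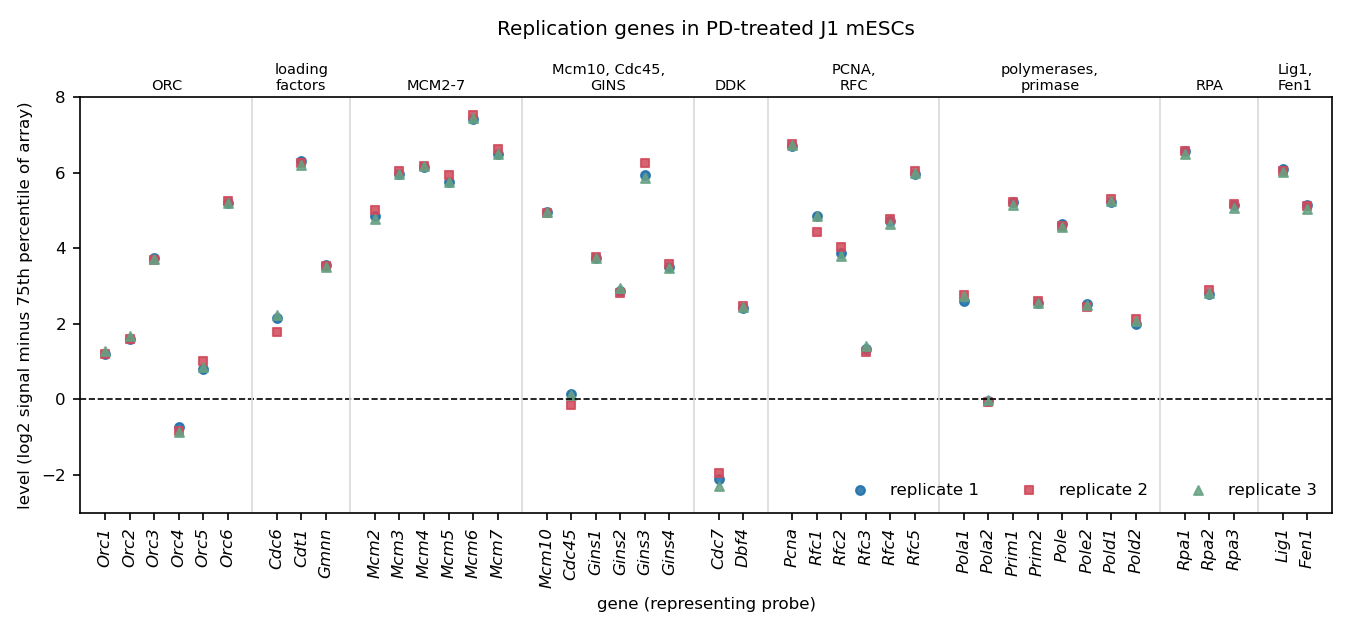
Level of each replication gene (log2 signal minus the 75th percentile of the array) on the 3 arrays, grouped by complex. The dashed line marks the 75th percentile, and 38 of the 42 genes lie above it with all 3 symbols. The largest distance between symbols of a gene is the 0.45 log2 units of Cdc6.

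The spread between replicates was described by the SD and the range. The SD of a gene over the 3 arrays had a median of 0.052 log2 units over the replication genes and 0.074 over all 14999 detected genes with complete values. Among the genes with levels above 0 on all arrays the medians were 0.049 for the replication genes and 0.058 for all 8439. A distance of more than 1 log2 unit between the highest and lowest array was found for 0 of 42 genes, against 0.987% of all detected genes. This distance is called the range below. It was under 0.1 for 23 genes, between 0.1 and 0.2 for 11 and at least 0.2 for 8. Over all detected genes it was under 0.1 for 32.4% and at least 0.2 for 31.7%. The median range was 0.098 over the 42 genes and 0.14 over all detected genes. For the 42 genes the median range corresponded to a 1.07-fold difference and the largest to 1.37-fold. The scanner software gave each spot of these genes an error of at least 10% of its signal. The highest and lowest array differed by less than this error for 30 genes and by more for 12. The share of all detected genes within this error was not counted, so these counts are not set against a background. Each probe had 1 spot per array, so no gene of the list had an error between spots and none could be tested between the arrays.

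ORC recognises origins and starts the loading of MCM. Its subunits were detected in 6 of 6 cases. Orc1, the subunit that comes and goes with the cell cycle, had levels of 1.20, 1.20 and 1.27 on replicates 1 to 3. Orc5 had levels of 0.80, 1.00 and 0.84, a range of 0.21 that was the largest among the representing probes of the complex. Replicate 2 was thus the high one for Orc5, whereas the range of Orc1 was 0.07. The dimmer second probe of Orc3 had a range of 0.30. The mean levels of the others were 1.62 ± 0.05 for Orc2 (SD, n = 3 here and below), 3.71 ± 0.03 for Orc3, -0.81 ± 0.07 for Orc4 and 5.21 ± 0.03 for Orc6.

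Cdc6, an ATPase that completes the loader on ORC, had the largest range of the list. It was measured at levels of 2.15, 1.78 and 2.23, so replicate 2 lay 1.37-fold under the highest array. The spot lies in a marked block of replicate 2. The second probe of Cdc6 lies outside the marked blocks, and its levels were 0.51, 0.28 and 0.54. Replicate 2 was the low one in both probes, with ranges of 0.45 and 0.26. For Cdt1, which brings MCM to the loader, the levels averaged 6.25 ± 0.05, and for its inhibitor Gmnn 3.53 ± 0.03.

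The MCM ring is the motor of the helicase. All 6 subunits were detected, with mean levels between 4.88 and 7.46 and SDs of at most 0.13. Mcm2 had the widest range, 0.25, with levels of 4.86, 5.02 and 4.77. Mcm5, whose spot lies in a marked block, had levels of 5.74, 5.93 and 5.75. In both genes replicate 2 was the high one. Mcm4 varied least, with levels of 6.14, 6.18 and 6.17. The mean levels were 5.99 ± 0.05 for Mcm3, 7.46 ± 0.06 for Mcm6 and 6.53 ± 0.07 for Mcm7, the host of the microRNAs above.

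Replicate 2 was the highest array for all 6 MCM subunits, by 0.04 to 0.19 log2 units over replicate 1 and by 0.01 to 0.25 over replicate 3. In Mcm3, Mcm4, Mcm6 and Mcm7 the highest and lowest array differed by less than the software error of 1 spot. Among the 42 genes as a whole, the same was true of 30, and the share over all detected genes was not counted. Over the whole list replicate 2 was the highest for 25 of 42 genes, against 46.5% of all detected genes and 51.3% of those with levels above 0 on all arrays. Replicates 1 and 3 were the highest for 10 and 7 of the 42. The median difference, replicate 2 minus replicate 1, was 0.04 over the replication genes and 0.03 over all detected genes. The direction rested on the scaling. When the arrays were set to a common median instead of a common 75th percentile, replicate 2 was the highest for 9 of the 42 genes, for 3 of the 6 MCM subunits and for 23.1% of all detected genes. With quantile normalization it was the highest for 5 of the 6 subunits.

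Mcm10, which helps to switch the loaded helicase on, had the smallest SD of the list, with levels of 4.97, 4.94 and 4.95. Cdc45, the helicase subunit that joins with GINS, had levels of 0.14, -0.16 and 0.12. Its value on replicate 2 was the low one, 0.30 below replicate 1, and its spot was in no marked block. Among the GINS subunits, Gins1 was nearly level at 3.73, 3.77 and 3.73. Gins3 had levels of 5.92, 6.27 and 5.86, and its spot on the high replicate 2 lies in a marked block. The mean levels of Gins2 and Gins4 were 2.88 ± 0.06 and 3.52 ± 0.05.

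The kinase that fires origins was measured by Cdc7 and Dbf4. Cdc7 had signals of 127, 132 and 108 and levels of -2.11, -1.96 and -2.28. All 3 signals were above the lowest signal well above background on their array. A second probe of Cdc7 gave levels of -2.79, -2.40 and -2.56, so replicate 2 was the highest in both, but the lowest array differed between them. Its activator Dbf4 had levels of 2.42, 2.47 and 2.44.

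**Figure D3:**
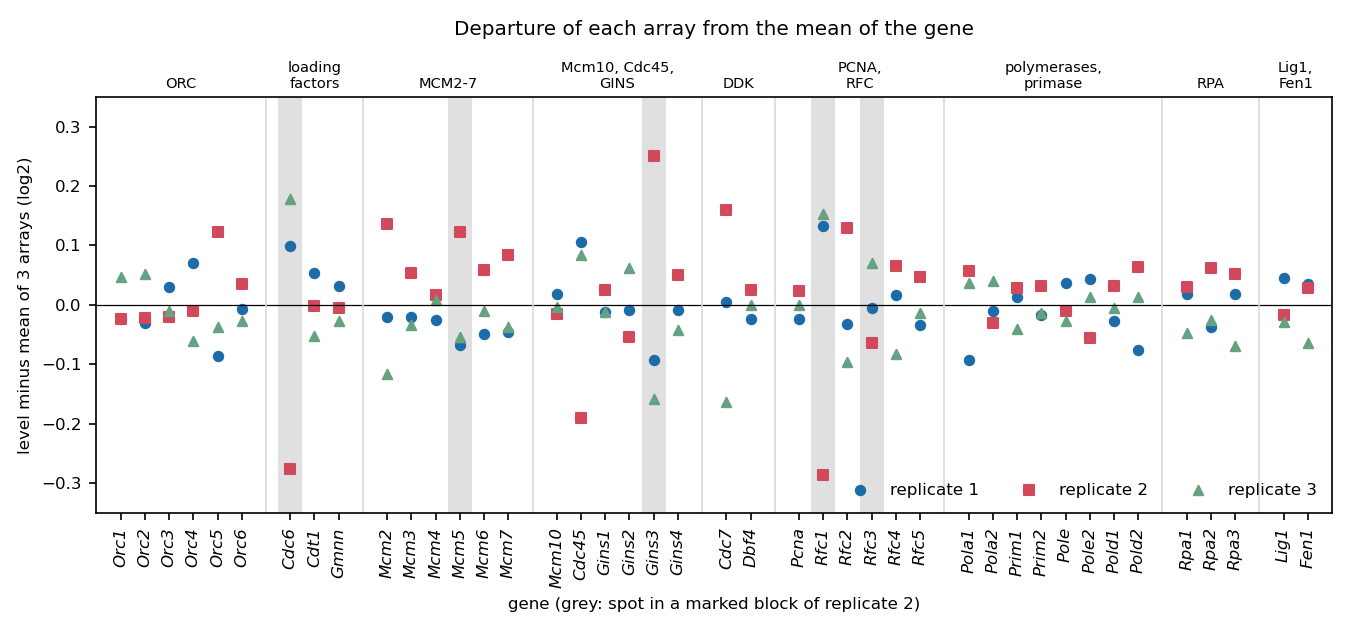
Level of each array minus the mean of the 3 arrays (log2 units, vertical axis) for the replication genes, grouped by complex. Grey bands mark the 5 genes whose plotted probes lie in marked blocks of replicate 2. The red squares of replicate 2 stand farthest out in Cdc6, Rfc1 and Gins3, all in grey bands, and above 0 for all MCM subunits.

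Pcna encodes the sliding clamp that holds polymerases on DNA. Its levels were 6.71, 6.76 and 6.74. The clamp is loaded by RFC, and of its subunits Rfc1 had the second largest range of the list. The levels of Rfc1 were 4.84, 4.42 and 4.86, so that replicate 2 was the low one, and the spot lies in a marked block. Rfc2 had levels of 3.86, 4.03 and 3.80, with replicate 2 high and no marked block. Rfc3, also in a marked block, had a mean of 1.33 ± 0.07. The mean level of Rfc4 was 4.71 ± 0.08, and Rfc5 had levels of 5.97, 6.05 and 5.99.

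The polymerases and primase were represented by 8 genes, and the largest range among their representing probes was the 0.15 of Pola1. The dimmer second probe of Pole had a range of 0.30. DNA polymerase alpha and its primase make the primers. Its catalytic subunit Pola1 had levels of 2.60, 2.75 and 2.73, and its partner Pola2 had a mean of -0.05 ± 0.04. The primase subunits had means of 5.20 ± 0.04 (Prim1) and 2.56 ± 0.03 (Prim2). For polymerase epsilon, which copies the leading strand, the means were 4.60 ± 0.03 (Pole) and 2.49 ± 0.05 (Pole2). For polymerase delta, which copies the lagging strand, they were 5.26 ± 0.03 (Pold1) and 2.07 ± 0.07 (Pold2). None of these 8 genes lay in a marked block.

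RPA covers the single strands that the helicase exposes. Its largest subunit Rpa1 had levels of 6.56, 6.58 and 6.50, and the means of Rpa2 and Rpa3 were 2.83 ± 0.05 and 5.13 ± 0.06. On the lagging strand, the nuclease Fen1 trims the flaps left by primers and the ligase Lig1 seals the nicks. Lig1 had levels of 6.09, 6.03 and 6.02, and Fen1 had a mean of 5.10 ± 0.06. The largest range in these 5 genes was the 0.12 of Rpa3.

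Marked blocks held the spots of the representing probes of 5 of the 42 genes: Cdc6, Mcm5, Gins3, Rfc1 and Rfc3. The second probe of Orc4 also lies in one. The median range was 0.41 log2 units in these 5 and 0.089 in the other 37. Over all detected genes, 13.3% lay in marked blocks, and the medians were 0.18 there and 0.14 elsewhere. With the 5 genes left out, the largest range of the list was the 0.32 of Cdc7, and replicate 2 was the highest array for 23 of 37 genes. The part of the marked blocks in the values of replicate 2 was not tested.

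Several probes were present for 6 of the 42 genes, each matched to the same transcript accession as its partner. All of these probes were detected, but their levels could lie far apart. The 2 probes of Pole differed by 8.84 log2 units in mean level, since the dimmer one had signals of 29.4, 29.9 and 25.0, and those of Orc3 by 6.13. For Rfc4 and Cdc6 the difference was 1.68 and 1.61, and for Cdc7 and Orc4 it was 0.46 and 0.32. The same array was the highest with both probes in 3 of the 6 genes (Cdc6, Cdc7 and Rfc4), and the same array was the lowest in 4 (Cdc6, Orc4, Pole and Rfc4). The dimmer probe of Orc4, with levels of -1.11, -1.04 and -1.23, is the one in a marked block. The probe sequences were not given in the files, so neither the part of the transcript that a probe covers nor its match to related genes could be checked.

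**Figure D4:**
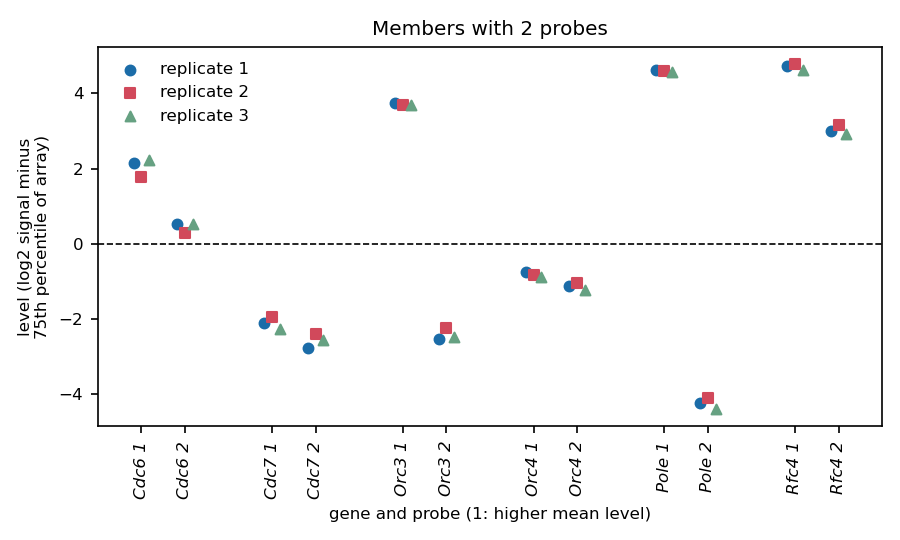
Levels (log2 signal minus the 75th percentile of the array) on the 3 arrays for both probes of the 6 replication genes that have 2, with probe 1 the one with the higher mean. The probes of Pole and Orc3 stand 8.84 and 6.13 log2 units apart, while the largest range of a single probe is 0.45.

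The rest of the pathway was described by a fixed list of 56 further genes, covering other polymerase subunits, origin firing, fork protection, alternative clamp loaders, primer removal, topoisomerases, chromatin assembly, nucleotide supply, E2F and pocket proteins and S phase cyclins. All 56 were detected on all arrays, against 72.7% of all genes with a symbol. Levels were above 0 on all arrays in 46, against 40.9% of all genes. The median SD was 0.057, against 0.074 over all detected genes. A range above 1 log2 unit was found for 0 genes, against 0.987% of all detected genes. The largest range, just under that limit, belonged to Chtf8, a subunit of an alternative clamp loader, with levels of 5.07, 5.60 and 4.60. Wdhd1, which ties polymerase alpha to the helicase, had levels of 1.47, 1.08 and 1.495. Pole3, an accessory subunit of polymerase epsilon, had levels of 1.25, 0.96 and 1.34. Mcm9, an MCM relative that acts in repair, had levels of -3.14, -3.23 and -2.89 and a spot in a marked block.

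The E2F genes were looked at singly because of the motif above, after their values had been seen. All 8 were detected. The activators E2f1, E2f2 and E2f3 had mean levels of 2.47 ± 0.06, 2.34 ± 0.02 and 2.19 ± 0.03. Of the repressors, E2f4 had 0.38 ± 0.02, and E2f5 had levels of 0.10, -0.01 and -0.08, around the 75th percentile. The repressors E2f6, E2f7 and E2f8 had 2.67 ± 0.08, 1.36 ± 0.01 and 2.40 ± 0.03. Within the 34 replication genes with a promoter entry, the 14 with an E2F match had a median SD of 0.054 and the 20 without one of 0.055. Their mean levels ran from 1.22 to 7.46 and from -2.12 to 6.74, respectively.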

How the data were processed

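RNA of the 3 samples was hybridised in 1 colour (Cy3) to 1 Agilent array each, on 1 slide and in 1 scan. The deposited scanner intensity values were made with Agilent Feature Extraction 10.7.3.1 per the file headers, which subtracts background and removes trends within an array, and hold no normalization between arrays. A deposited table holds log2 values with no stated normalization and served as an alternative, beside other scalings and normexp on median signals. Accessions were matched without versions to RefSeq genes of GRCm38.p6 (27235 probes). Spots flagged as outliers were left out, log2 signals were set to the 75th percentile of each array, and a probe counted as detected if at least 50% of its spots were well above background. Python 3.11.15 and limma 3.58.1 in R 4.3.3 were used; the functions were tested on simulated arrays. The planned comparison of spots between arrays was not run, since no gene of the list has a probe with several spots. Values over arrays are mean ± SD, and the number of arrays limits their precision. All 42 genes are named. Values on every array are given for the 10 largest ranges, the 5 smallest SDs and the first gene of each complex. Of the further replication genes, those with the largest ranges are named, except 1 that is not reported here. Genes and lists were chosen with earlier results of these data known.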

Additional observations from a re-analysis of the deposited data

How the results depend on the processing

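No paired analysis was possible because only PD-treated cells were analysed here. All 42 genes and all 56 further replication genes stayed detected with the other flag, with all spots, with any or all probes of a gene and with each replicate left out, and 0 of the 42 had a range above 1 log2 unit under any scaling. The median SD was between 0.037 and 0.050 with 1 replicate left out and between 0.044 and 0.057 otherwise. Over all detected genes it was between 0.051 and 0.067 and between 0.066 and 0.077, respectively. The gap between the list and all detected genes depended on the processing, and with normexp the medians were 0.057 and 0.066. Differences between arrays were small enough to turn with the scaling, and the cause was not tested. With the median of each array, the median differences over the 42 genes were -0.0061 (replicate 2 minus 1), 0.037 (3 minus 1) and 0.043 (3 minus 2), against 0.039, -0.0075 and -0.047, and replicate 2 was the highest for 9 genes and 3 MCM subunits. Cyclic loess gave -0.0043 for 2 minus 1, and averaging the probes of a gene gave 0.0041 for 3 minus 1. With 1 replicate left out, the remaining median difference was unchanged by construction. Levels above 0 on all arrays were found for 34 genes, against 27.5% of all genes, when the percentile was taken over named probes. Counts of the highest array were added after the data had been seen. The largest range was 0.17 without replicate 2, against 0.45 without replicate 1 and 0.42 without replicate 3. This was not particular to the list. Over all detected genes the median SD was 0.051 without replicate 2, against 0.067 without replicate 1 and 0.066 without replicate 3.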

Other observations

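Several replication genes share a start region with a neighbour on the opposite strand. Of the 34 genes with a promoter entry, 13 (38.2%) had the start of another gene within 1000 bases, pointing away on the other strand, against 17.4% of the detected genes, 12.3% of all genes in the table and 14.0% of the other replication genes. Closest among the partners with a probe was Rars2, a gene for a mitochondrial tRNA ligase, whose start lies 15 bases from that of Orc3. Ap4m1 starts 138 bases from Mcm7, Smyd4 50 bases from Rpa1, Prpf38a 118 bases from Orc1, Ufd1 322 bases from Cdc45 and Tmem258 281 bases from Fen1. Of the partners, 9 had a probe and all 9 were detected on the 3 arrays, against 72.7% of all genes with a symbol. Rars2 had levels of 3.94, 3.92 and 3.92 and Smyd4 of 1.48, 1.47 and 1.44. The lowest level among them was that of Zswim9, next to Lig1, at -1.94, -2.34 and -1.65. The motifs, the distance and the choice to look at neighbours were set with the list known, and no test was made.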
